A study of Mus musculus with 4 samples.

Results

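The fibrillar collagen genes described here are Col1a1, Col1a2, Col3a1, Col5a1, Col5a2, Col5a3 and Col11a1, which are 7 of the 33696 gene features in each matrix. They were chosen by name, for the fibrillar collagen chains they encode, and their unique molecular identifiers (UMIs, each standing for 1 captured RNA molecule) were counted by nuclear class, fibroblast state, region and library. Nuclei came from the brains of adult mice 21 days after photothrombotic cortical injury (21 dpi), with the lesion and the perilesional cortex (labelled parenchyma) dissected apart and tagged before sorting. The control library was labelled wild type, and the other was labelled Cxcl12-cKO and came from Col1a2(creER); Cxcl12(flox) mice, in which tamoxifen-inducible Cre driven from Col1a2 is meant to delete the floxed gene for the chemokine CXCL12 in fibroblasts. Each library pooled 1 female and 1 male mouse, so n = 1 library per genotype. The mice were told apart by their sex-linked UMIs, and their values are given side by side, but the 2 mice of a library share its preparation and genotype goes with library. No test between genotypes was therefore made, and all intervals cover counting error only.

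Cxcl12, the targeted gene, was counted at 106 CPM (its UMIs among 1000000 UMIs of the same nuclei) in lesional fibroblast-like nuclei labelled control and at 215 CPM in those labelled Cxcl12-cKO. The log2 ratio of 1.02 (0.93 to 1.11) goes against the label, and was 1.39 between the female mice and 0.80 between the male mice. Which exons the floxed allele loses was not given, so whether 3′ tags can check the deletion is unknown. The samples are therefore named by their labels, as the control-labelled and the cKO-labelled library, and paired values are given in that order. After filtering, 8095 and 7933 lesional nuclei remained, with medians of 2962 and 2975 UMIs, beside 2877 and 2838 parenchymal nuclei with medians of 15915 and 16648. The libraries shared 47 barcode sequences. Nuclei with UMIs of both sexes, which can be doublets of the female and the male mouse, made up between 9.75% and 14.3% of a matrix.

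Fibrillar collagens assemble from chains that wind into a triple helix, are trimmed outside the cell and pack into the banded fibrils that give scars and connective tissue their strength. Col1a1 and Col1a2 encode the chains of type I collagen and Col3a1 the chain of type III, which make up the bulk of such fibrils. Col5a1, Col5a2 and Col5a3 encode type V chains and Col11a1 a type XI chain, minor components that start fibrils and limit their width. In the brain, fibroblasts of the meninges and around vessels are the usual source of these genes, and they enter the lesion after injury.

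Fibroblast-like nuclei, named from markers such as Pdgfra, Dcn, Lum and Bnc2 with all fibrillar collagen genes left out of clustering, made up 51.3% of lesional nuclei in both libraries. They held 72.6% of the lesional fibrillar collagen UMIs in the control-labelled library and 82.5% in the cKO-labelled library, beside 42.6% and 47.3% of all lesional UMIs. Over both libraries the share ran from 80.7% for Col3a1 to 55.3% for Col5a3. The other genes lay between, with 78.6% for Col5a2, 78.1% for Col1a2, 75.2% for Col11a1, 73.2% for Col1a1 and 69.0% for Col5a1. When the 10% of nuclei with the highest doublet scores were left out, the share of all 7 genes together, 77.0%, came to 83.7%, and when each nucleus was assigned by its own marker UMIs it came to 53.1%.

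Osteoblast-like nuclei, a cluster led by Postn, Dapk2, Tnn and Mmp13 in which Runx2 made up most of the osteoblast marker UMIs, had the highest level of 6 of the 7 genes among the classes at the main cluster resolution. Their summed level was 12462 CPM (95% Poisson interval 12235 to 12693) in the control-labelled library and 9240 CPM (8839 to 9655) in the cKO-labelled library. Fibroblast-like nuclei followed with 4824 and 4304 CPM. The osteoblast-like cluster held 12.03% of lesional fibrillar collagen UMIs in the first library and 2.62% in the second, where it made up 4.22% and 1.07% of lesional nuclei. Only 4 of its 8 markers passed the marker rule, so the name rests on Runx2 and few other genes. Of the 7 genes, Col5a1 had the largest part of its lesional UMIs in these nuclei, 20.4% in the control-labelled and 4.62% in the cKO-labelled library. For Col5a3 the second source was astrocyte-like nuclei, which held 30.7% and 26.2% of its lesional UMIs and 3.79% and 3.75% of those of Col1a1.

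Osteoblast-like nuclei came first and fibroblast-like nuclei second for each gene but Col5a3. Col1a1 had 2424 and 2310 CPM in osteoblast-like nuclei, 683 and 668 CPM in fibroblast-like nuclei and 596 and 333 CPM in endothelial-like nuclei. Col5a1 was the gene for which the osteoblast-like cluster stood furthest from fibroblast-like nuclei, with 518 and 524 CPM against 97.4 and 130 CPM. Col5a3 was the exception to the order: astrocyte-like nuclei had 72.7 and 69.2 CPM, ependymal-like nuclei 174 and 150 CPM (in only 10 and 21 nuclei), osteoblast-like nuclei 51.3 and 69.6 CPM, and fibroblast-like nuclei 23.1 and 34.3 CPM. In the cKO-labelled library the interval of the osteoblast-like value, 38.9 to 115 CPM, overlapped those of astrocyte-like and ependymal-like nuclei.

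**Figure D1:**
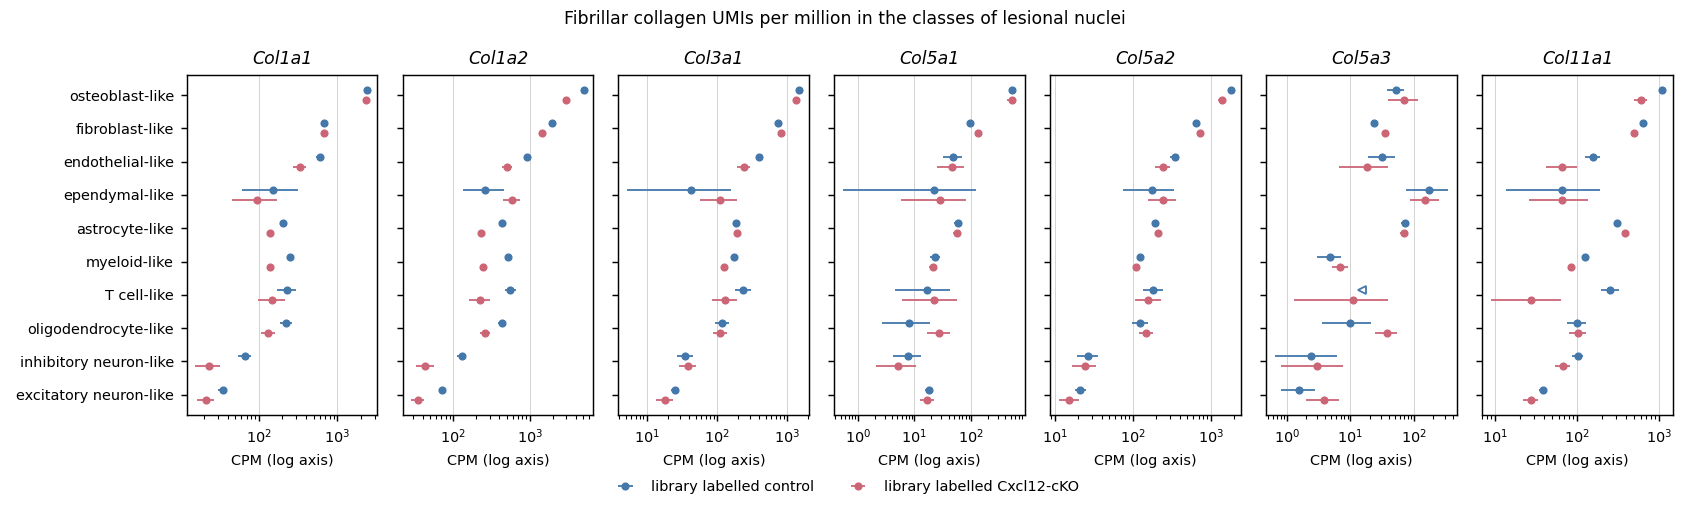
Level of each fibrillar collagen gene (CPM, log axis) in the classes of lesional nuclei, with 1 point per library and 95% Poisson intervals; the open triangle marks the upper limit where no UMI was found. Osteoblast-like and fibroblast-like nuclei lead for most genes (Col1a1 2424 and 683 CPM in the control-labelled library), while Col5a3 has its highest points in ependymal-like nuclei.

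Neurons are not a known source of type I collagen, and the Col1a1 and Col1a2 UMIs of neuron-like nuclei were read as background. Whether they came from free RNA or from doublets, which were kept, was not tested. Free RNA adds UMIs to each droplet, so the background was read per nucleus. Lesional excitatory neuron-like nuclei held 1.59 and 0.74 type I UMIs per nucleus and inhibitory neuron-like nuclei 2.34 and 0.64. T cell-like nuclei held 1.54 and 0.66 and myeloid-like nuclei 2.06 and 1.16, against 9.16 and 7.53 in fibroblast-like nuclei. The type I UMIs of T cell-like nuclei were thus at the neuronal background. Those of myeloid-like nuclei lay between the neuron classes in the control-labelled library. In the cKO-labelled library they were above both by less than 1 UMI per nucleus. With the mice of each library pooled, the background was lower in the cKO-labelled library. The neuron-like nuclei of the male mice did not show this for Col1a2 CPM. Its log2 ratio, cKO-labelled over control-labelled, was -1.29 for the female pair and 0.42 (-0.30 to 1.06) for the male pair in excitatory neuron-like nuclei. For inhibitory neuron-like nuclei the ratios were -2.41 and 1.05. T cell-like nuclei were lower in both pairs (-0.86 and -2.73).

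The shares of nuclei with a UMI of any of the 7 genes are not a background in neurons, since some neurons had Col11a1 and Col5a1 of their own, described next. In lesional excitatory neuron-like nuclei, with medians of 13918 and 12781 UMIs, the summed level was 211 and 137 CPM. With every nucleus thinned to 1000 UMIs, 16.3% and 17.9% of them held a fibrillar collagen UMI, against 90.6% and 86.5% of fibroblast-like nuclei, which had medians of 3068 and 3099 UMIs. Unthinned, the shares were 74.4% and 64.3% against 98.3% and 96.6%. Thinning left out 105 and 94 fibroblast-like nuclei and 0 and 1 excitatory neuron-like nuclei.

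The makeup of the fibrillar collagen UMIs was alike in some classes and not in others. In lesional myeloid-like nuclei Col1a2 made up 38.4% of these UMIs, Col1a1 19.7%, Col3a1 15.6%, Col5a2 12.5% and Col11a1 10.9%, close to the 37.3%, 14.8%, 17.2%, 15.1% and 12.4% of fibroblast-like nuclei. T cell-like nuclei, with 36.0% Col1a2 and 13.6% Col11a1, had a like makeup. Parenchymal neurons did not: in excitatory neuron-like nuclei there Col11a1 made up 42.5%, Col5a1 22.6% and Col1a2 12.9%, and in inhibitory neuron-like nuclei Col11a1 made up 60.3%.

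At a finer cluster resolution of 0.5, chosen for this purpose after the data were seen, these UMIs fell on particular clusters. Oligodendrocyte precursor-like nuclei, led by Bcas1 and Enpp6, had 764 CPM of Col11a1 (678 to 858) in lesions of the control-labelled library and 1176 CPM (1082 to 1276) in those of the cKO-labelled library. These levels were above that of fibroblast-like nuclei as a whole in both libraries. In the cKO-labelled library they were also above the osteoblast-like level of 598 CPM. The fibroblast-like state with the most Col11a1, described below as state 0, had 1310 and 843 CPM. Col11a1 was 60.8% of the fibrillar collagen UMIs of the precursor-like nuclei. At 1000 UMIs, 43.4% of the precursor-like nuclei held a Col11a1 UMI, against 17.4% of astrocyte-like nuclei. An excitatory neuron-like cluster led by Oprk1, Npsr1 and Galnt14 had 122 and 163 CPM of Col11a1 in the parenchyma, where the clusters marked by Ndst4, by Rorb and by Hs3st4 had 36.6 and 29.1, 15.6 and 22.4, and 8.82 and 12.6 CPM.

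Col5a1 had a different order among these neurons. In the parenchyma the cluster with Hs3st4 and Thsd7b among its leading genes had 67.9 CPM of Col5a1 (62.1 to 74.1) in the control-labelled library and 82.7 CPM (76.1 to 89.8) in the cKO-labelled library. The clusters led by Rorb and by Ndst4 had 9.10 and 10.8 CPM and 10.5 and 10.7 CPM, and the Oprk1 cluster had 2.33 and 2.61 CPM. Col5a1 was 63.1% of the fibrillar collagen UMIs in the Hs3st4 cluster and Col11a1 was 77.6% in the Oprk1 cluster. Both patterns were found in both libraries, and Col1a2 was between 10.7 and 14.2 CPM in the 4 clusters. In the lesion, where the Oprk1 cluster had 79 and 32 nuclei, it had 51.0 and 15.0 CPM of Col11a1, with intervals that overlapped those of other excitatory clusters.

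**Figure D2:**
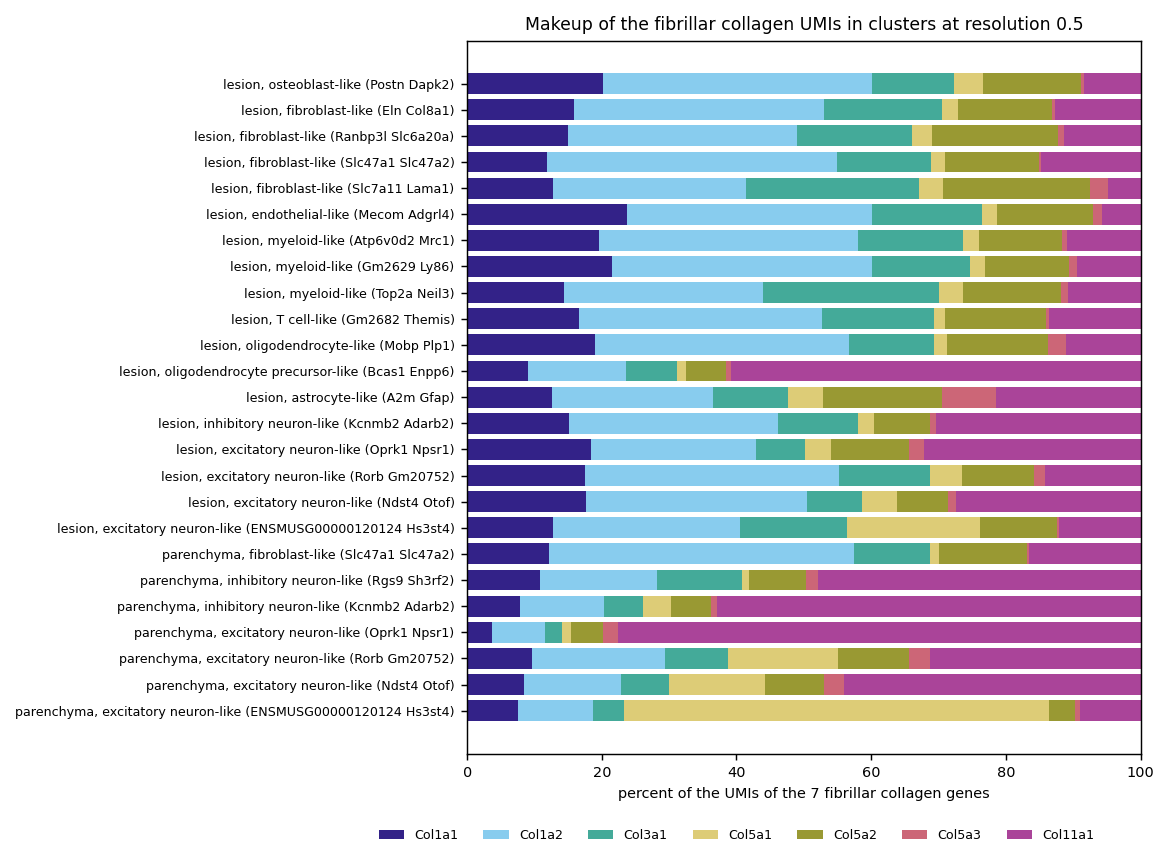
Share of each gene in the UMIs of the 7 fibrillar collagen genes (percent, libraries together) in clusters at resolution 0.5 with at least 200 such UMIs; clusters are named by class and by leading genes. Col11a1 takes 60.8% in oligodendrocyte precursor-like nuclei and 77.6% in the parenchymal Oprk1 cluster, and Col5a1 takes 63.1% in the parenchymal Hs3st4 cluster.

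The glial pattern of Col5a3 was also found at this resolution. Astrocyte-like nuclei, led by A2m, Gfap and Aqp4, had 83.7 CPM of Col5a3 (72.2 to 96.4) in the control-labelled library and 80.7 CPM (70.0 to 92.6) in the cKO-labelled library. Col5a3 made up 8.03% of their fibrillar collagen UMIs and 0.631% of those of lesional fibroblast-like nuclei. Their Col11a1 level was 225 and 213 CPM, below that of fibroblast-like nuclei.

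The vascular cluster held endothelial and mural markers together, and was divided by which of the marker lists had more UMIs in a nucleus, a step added after the data were seen. In the control-labelled library the 54 nuclei with more mural UMIs had 887 CPM of Col3a1 and 880 CPM of Col1a1, and the 145 with more endothelial UMIs had 244 and 479 CPM. In the cKO-labelled library only 22 nuclei had more mural UMIs, with 273 CPM of Col3a1 and 191 CPM of Col1a1, while the 79 with more endothelial UMIs had 230 and 375 CPM, so that the order for Col1a1 was the other way. Fibroblast markers summed to 1457 and 1255 CPM in the vascular cluster, and their part in these levels was not tested.

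Lesional fibroblast-like nuclei fell into 4 states when clustered without the fibrillar collagens. State 0, called late inner-like from its markers and led by Matn4, Nav2, Erg and Fhod3, held 26.0% of these nuclei in the control-labelled library and 35.3% in the cKO-labelled library. State 1 (led by Gm30613, Col4a6 and Dcdc2a, with 9.26% and 11.8%) and state 3 (led by Trpm3, Ranbp3l and Ptgds, with 41.1% and 36.7%) were leptomeningeal-like. State 2, led by Galnt13, Npr3 and Prmt8, matched no list and held 23.7% and 16.2%.

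State 0 carried the most fibrillar collagen. Its summed level was 9628 CPM in the control-labelled library and 7120 CPM in the cKO-labelled library, whereas states 1, 2 and 3 had 3335, 3185 and 3174 CPM in the first and 3349, 2338 and 2427 CPM in the second. At 1000 UMIs a state 0 nucleus had a median of 9 fibrillar collagen UMIs in the control-labelled library and 6 in the cKO-labelled library, and medians in the other states were 2 or 3. Less than 1% of state 0 nuclei had none at that depth (0.395% and 0.794%), against 11.9% and 13.9% of states 1 and 3 in the control-labelled library and 18.4% and 20.8% in the cKO-labelled library. At least 3 of the 7 genes were found in 84.6% and 77.1% of state 0 nuclei, and in 43.5% and 42.0% of all fibroblast-like nuclei. State 0 was highest for every gene but Col5a3.

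State 0 stood apart for single nuclei as well. At 1000 UMIs, 73.8% and 64.1% of state 0 nuclei held a Col1a1 UMI, against 21.5% to 32.5% in the other states of either library. Col3a1 was next to state 0 in state 1, with 1546 and 1330 CPM in state 0, 789 and 941 CPM in state 1, 472 and 447 CPM in state 3 and 409 and 336 CPM in state 2. Col11a1 had its lowest level in state 1, with 183 and 247 CPM, against 1310 and 843 CPM in state 0.

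Col5a1 and Col5a2 had a narrower range over the states. Col5a2 had 1196 and 1090 CPM in state 0, 610 and 692 CPM in state 1, 482 and 502 CPM in state 3 and 410 and 384 CPM in state 2. Col5a1 had 184 and 199.5 CPM in state 0, 99.1 and 135 CPM in state 1, 66.7 and 86.4 CPM in state 3 and 60.7 and 61.1 CPM in state 2. For both, states 2 and 3 had the lowest levels.

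Col5a3 was highest in state 1, with 81.4 CPM and 75.9 CPM, beside 37.96 and 44.9 CPM in state 0, 13.8 and 23.0 CPM in state 3 and 5.50 and 8.56 CPM in state 2. State 1 differed in makeup as well: Col3a1 made up 26.2% of its fibrillar collagen UMIs against 17.5% in state 0, and Col11a1 6.54% against 12.7%. In state 2 Col1a2 made up 44.3% and Col5a3 0.235%.

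**Figure D3:**
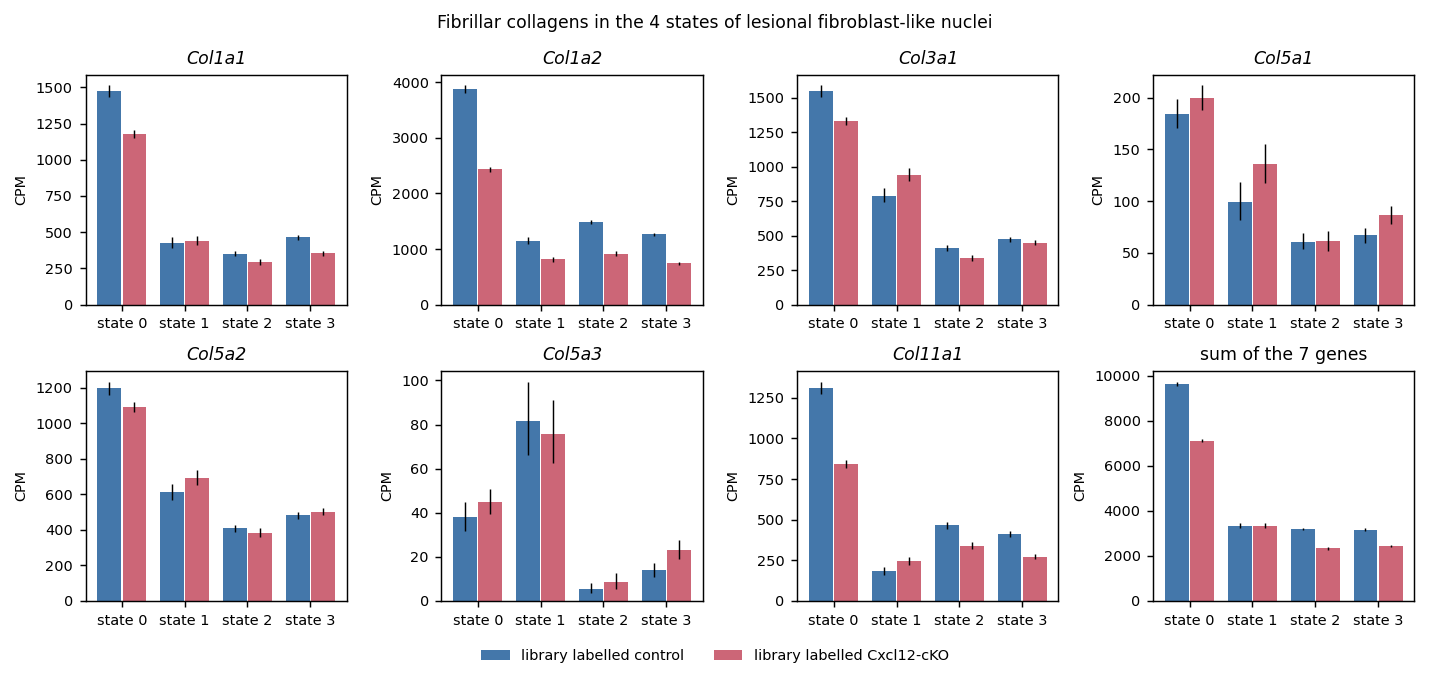
Level (CPM) of each fibrillar collagen gene and of their sum in the 4 states of lesional fibroblast-like nuclei, as bars per library with 95% Poisson intervals. State 0 has the tallest bars for all genes but Col5a3, and Col1a2 is lower in the cKO-labelled library in each state (3880 and 2433 CPM in state 0).

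The levels of the genes over the 4 states of both libraries (8 points, which share libraries and depth) were compared as log2(CPM + 1). Col3a1 and Col5a2 were the pair most alike (Pearson's r = 0.979), followed by Col5a1 and Col5a2 (0.976), and Col1a2 was most like Col11a1 (0.911). Col5a3 was least like Col11a1 (-0.128). Among 10559 genes compared with each, Col1a1 was most like Sparc (0.997), which encodes a collagen-binding matrix protein, and then Srsf11 (0.995) and Copb2 (0.990). Col3a1 was most like Loxl1 (0.994) and Loxl3 (0.993), which encode collagen and elastin cross-linking enzymes, and Fas (0.988).

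The genes most like Col5a2 were Mxra7 (0.996), Tenm4 (0.994) and Ddah1 (0.994), and those most like Col5a1 were Fndc1 (0.989), Zfp36l2 (0.988) and Mxra7 (0.983). Col5a3 went with Ednra (0.995), an endothelin receptor gene, Zfp704 (0.991) and Pakap (0.990). The genes most like Col1a2 were Ubap2l (0.983), Psmd14 (0.977) and Raver2 (0.972), and those most like Col11a1 were Usp13 (0.985), Plekhg5 (0.979) and Naprt (0.977). With so few points these values describe the states and carry no test.

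The comparison of genotypes asks whether the collagen output of lesional fibroblasts differed with fibroblast Cxcl12 deletion. Pooled over states, 0 of 7 fibrillar collagens were past 1.5-fold with an interval that left out 0, where 4.9% of the 14294 genes with at least 50 UMIs were (2.74% higher and 2.15% lower in the cKO-labelled library). The median log2 ratio of the 7 genes was 0.12, beside 0.00 over all genes. Within this range the genes went different ways: Col1a2 and Col11a1 were lower in the cKO-labelled library, Col1a1 was within counting error, and Col3a1 and the type V genes were higher.

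Col1a2 had 1981 CPM (1958 to 2004) in the control-labelled library and 1430 CPM (1410 to 1449) in the cKO-labelled library, a log2 ratio of -0.47 (-0.50 to -0.44). The female mouse had 1793 CPM in the first library and 1236 in the second, and the male mouse 2162 and 1558. Both mice of the cKO-labelled library thus lay below both of the control-labelled library. Col11a1 had 636 and 500 CPM (log2 ratio -0.35, -0.39 to -0.30), with 592 and 415 CPM in the female mice and 672 and 584 CPM in the male mice. Here too both mice of the cKO-labelled library were lower, but the nearest values, 584 and 592 CPM, were close. Col3a1, Col5a1, Col5a2 and Col5a3 had the opposite order. Their male pair was within counting error for Col5a2 (log2 ratio 0.02, -0.04 to 0.08) and Col5a3 (0.22, -0.07 to 0.51). How many of all genes split the mice this way was not counted. With mice pooled, Col1a2 UMIs per lesional nucleus were 6.81 and 5.13 in fibroblast-like nuclei and 1.07 and 0.46 in excitatory neuron-like nuclei. The part of that background in the Col1a2 difference was not tested.

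Col1a1 had 683 and 668 CPM, a log2 ratio of -0.03 (-0.07 to 0.01). In its case the female mice had 622 and 595 CPM and the male mice 712 and 721 CPM, so the sexes differed more than the libraries. Col3a1 had 752 and 817 CPM (0.12, 0.08 to 0.16) and Col5a2 had 652 and 725 CPM (0.15, 0.11 to 0.19). Col3a1 was higher in both comparisons of mice, with 702 and 830 CPM in the female and 809 and 859 CPM in the male. The difference in Col5a2 lay in the nuclei of the female mice, with 576 and 744 CPM, and not in those of the male mice, with 731 and 742 CPM. In the control-labelled library the male mouse was above the female by a log2 ratio of 0.34 for Col5a2, more than the difference between the libraries.

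Col5a1 had 97.4 and 130 CPM (log2 ratio 0.42, 0.32 to 0.52) and Col5a3 had 23.1 and 34.3 CPM (0.57, 0.36 to 0.77), so the least counted genes had the largest ratios upward. In the female mice Col5a1 had 81.4 and 143 CPM and Col5a3 had 14.9 and 36.1 CPM, both past 1.5-fold (0.81 and 1.27). In the male mice Col5a1 had 109 and 131 CPM and Col5a3 had 31.4 and 36.5 CPM (0.27 and 0.22), neither past it. The 2 mice of the control-labelled library differed in Col5a3 by a log2 ratio of 1.07, which exceeds the pooled difference between libraries.

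**Figure D4:**
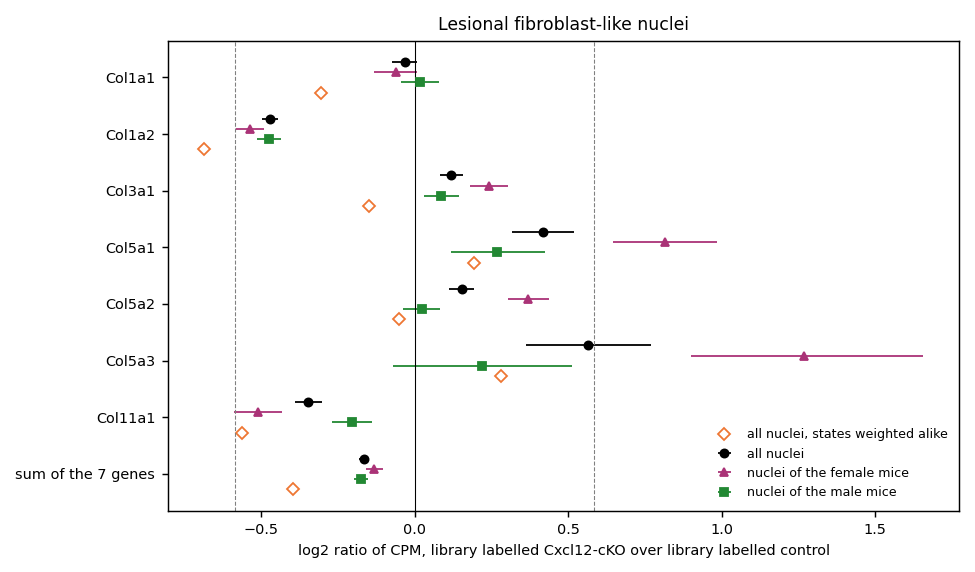
Log2 ratio of CPM in lesional fibroblast-like nuclei, cKO-labelled over control-labelled library, for all nuclei, for the nuclei of the female and of the male mice, and with the states given the same weight in both libraries; lines are 95% binomial intervals and dashed lines mark 1.5-fold. Col1a2 and Col11a1 lie left of 0 in every version, and Col5a1 and Col5a3 lie right of 0.

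The pooled ratios mix 2 differences: levels within states, and the larger share of state 0 in the cKO-labelled library. Within state 0 Col1a1 had 1473 and 1180 CPM (log2 ratio -0.32, -0.37 to -0.27), within state 2 it had 351 and 291 CPM and within state 3 it had 464 and 355 CPM. In state 1 it had 426 and 442 CPM. Col1a1 was thus lower in 3 of 4 states in the cKO-labelled library, while the pooled levels were almost equal. Col1a2 was lower in all 4 states, by log2 ratios of -0.67 in state 0, -0.49 in state 1, -0.69 in state 2 and -0.77 in state 3. Each state had the same direction in the female mice (-0.30 to -1.08) as in the male (-0.23 to -0.71).

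The type V genes did not share this direction. Col5a1 was within counting error in states 0 and 2 (0.11 and 0.01) and higher in states 1 and 3 (0.45, 0.12 to 0.79, and 0.37, 0.16 to 0.58), above 0 there in both pairs of mice. Col5a3 was past its counting error only in state 3, with 13.8 and 23.0 CPM (0.73, 0.29 to 1.18), where the female mice were at -0.25 and the male mice at 1.06. Col5a2 was at -0.13 in state 0 and 0.18 in state 1, but neither held in both pairs of mice. The female mice were at 0.09 and 0.53 and the male mice at -0.24 and 0.01.

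With each state given its share of UMIs over both libraries, the summed level was 5249 CPM in the control-labelled library and 3989 CPM in the cKO-labelled library, a log2 ratio of -0.40, beside -0.16 when pooled. On that footing Col1a2 was at -0.69, past 1.5-fold, Col11a1 at -0.56, Col1a1 at -0.31, Col3a1 at -0.15 and Col5a2 at -0.05, while Col5a1 and Col5a3 stayed above 0 at 0.19 and 0.28. Col3a1 and Col5a2 changed sign. State 0 held 19.8% of fibroblast-like nuclei in the female and 29.3% in the male mouse of the control-labelled library, and 33.6% and 37.6% in those of the cKO-labelled library.

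State 1 stood apart from the other states in direction. Its summed level was almost equal in the pooled libraries, with 3335 and 3349 CPM, and was higher in the cKO-labelled library within each pair of mice (2643 and 3174 CPM in the female, 3602 and 3940 CPM in the male), whose shares of state 1 differed between the libraries. Col11a1 was higher there in the cKO-labelled library, with 183 and 247 CPM (log2 ratio 0.43, 0.19 to 0.68), where in states 0, 2 and 3 it was lower (-0.64, -0.46 and -0.60). Col3a1 was at 0.25 (0.13 to 0.37) in state 1 and at -0.22 in state 0, with the same directions in both pairs of mice. In state 2 it was at -0.28 when pooled, at -0.74 between the female mice and 0.16 between the male mice. In the female mice Col11a1 in state 1 had 148 and 163 CPM and in the male mice 163 and 366 CPM, so most of that difference lay in 1 pair of mice.

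The type I genes could be compared without any library total, as the share of Col1a2 among Col1a1 and Col1a2 UMIs, a measure added after the data were seen. In lesional fibroblast-like nuclei this share was 74.4% (95% Clopper-Pearson interval 73.9 to 74.8) in the control-labelled library and 68.1% (67.6 to 68.7) in the cKO-labelled library. The female and the male mouse had 74.3% and 75.2% in the first library and 67.5% and 68.4% in the second. The 2 mice within a library were thus much closer to each other than the libraries were.

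The same order held in each of the 4 states, for female and for male mice alike. The shares were 72.9% and 64.9% in state 1, 72.5% and 67.3% in state 0, 80.9% and 76.0% in state 2 and 73.1% and 67.6% in state 3. Osteoblast-like nuclei had 67.8% and 56.4%. Over lesional classes with at least 30 UMIs in both libraries the share was lower in the cKO-labelled library in 8 of 9. The exception was oligodendrocyte-like nuclei, with 66.4% in both. The intervals of the libraries also overlapped in endothelial-like nuclei (60.9% and 60.3%), inhibitory neuron-like nuclei (65.9% and 65.6%), T cell-like nuclei (71.3% and 60.3%) and excitatory neuron-like nuclei (67.4% and 62.1%). Type I UMIs of neuron-like and T cell-like nuclei were read above as background, so the classes are not separate observations. Within pairs of mice, endothelial-like nuclei had the other order (62.3% and 63.8% in the female, 59.4% and 60.6% in the male). So did some other classes in 1 pair. Osteoblast-like nuclei (68.2% and 51.8%, 66.8% and 59.4%) and myeloid-like nuclei kept the order in both pairs.

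The share was lower in parenchymal nuclei too, with 80.0% and 66.9% in the few fibroblast-like nuclei there and 66.9% and 60.9% in excitatory neuron-like nuclei. The Cre of the Cxcl12-cKO mice is driven from Col1a2, and the sources used here do not give how that allele changes it. The allele goes with the label, so its part in the Col1a2 counts and that of Cxcl12 deletion cannot be told apart.

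**Figure D5:**
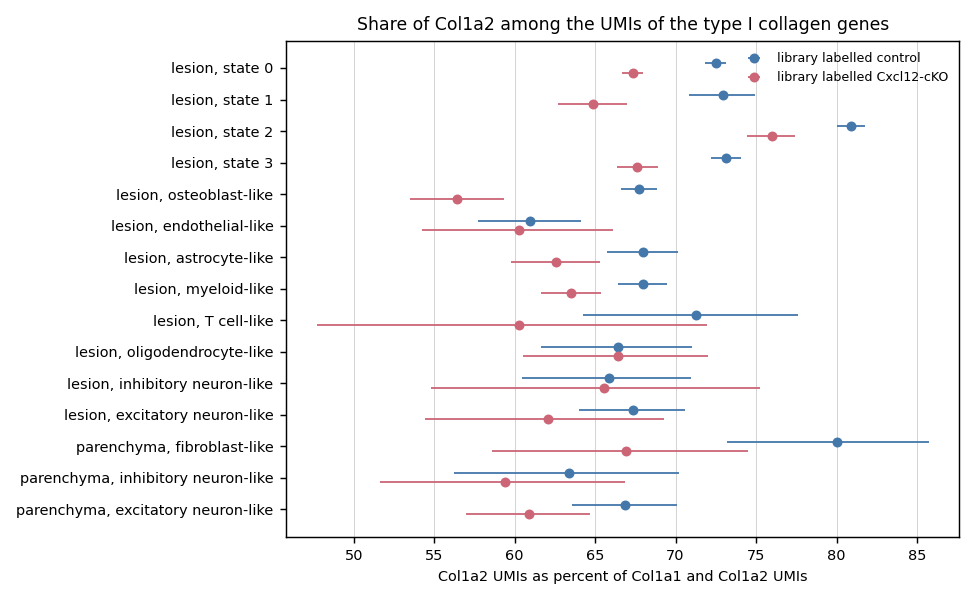
Col1a2 UMIs as a percent of Col1a1 and Col1a2 UMIs in fibroblast states and other classes, with 1 point per library and 95% Clopper-Pearson intervals. The cKO-labelled library lies to the left in all 4 fibroblast states (67.3% against 72.5% in state 0) and in osteoblast-like nuclei (56.4% against 67.8%).

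Outside fibroblasts the levels were also lower in the cKO-labelled library for most classes. Myeloid-like nuclei had 1224 and 729 CPM in all (log2 ratio -0.75, -0.80 to -0.69), with 525 and 242 CPM of Col1a2. Osteoblast-like nuclei had 5093 and 2992 CPM of Col1a2 (-0.77, -0.89 to -0.65) and 1091 and 598 CPM of Col11a1 (-0.86), but 2424 and 2310 CPM of Col1a1 (-0.07, -0.21 to 0.07) and 518 and 524 CPM of Col5a1. Col1a2 was lower in 9 of 10 lesional classes, the exception being ependymal-like nuclei. These classes include fibroblast-like nuclei, and neuron-like and T cell-like nuclei, whose type I UMIs were read above as background. They are therefore not separate observations, and how many of all genes were lower in as many classes was not counted. Several of these classes differed between the pairs of mice. For the sum in myeloid-like nuclei the female mice were at -1.36 and the male mice at -0.06. In endothelial-like, oligodendrocyte-like and neuron-like nuclei the female mice were below 0 and the male mice above it (-1.18 and 0.63 in endothelial-like nuclei). In osteoblast-like nuclei Col1a1 was at 0.75 in nuclei of the female mice and -0.83 in those of the male, whereas Col1a2 was below 0 in both (-0.25 and -1.29).

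Promoters of 5 of the 7 genes are in the RefSeq table of GRCm38.p6 (those of Col1a1 and Col5a2 are not analysed here), an older build than the GRCm39 of the counts. The bases before the start of the pair that was lower, Col1a2 and Col11a1, are shown with those of Col3a1, which was not. The stretch for Col11a1 ends 61 bases short of the start used in the table, and the other stretches end at it. Capitals mark the CCAAT motif (as ATTGG on the other strand), the GC box motif GGGCGG, and the TATA box motif TATAAA, searched on both strands.
Col1a2, chr6:4505418-4505617, plus strand: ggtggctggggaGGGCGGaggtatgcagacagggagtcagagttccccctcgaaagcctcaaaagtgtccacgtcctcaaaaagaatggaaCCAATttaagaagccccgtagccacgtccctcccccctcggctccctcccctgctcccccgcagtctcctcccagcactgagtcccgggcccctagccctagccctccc
Col11a1, chr3:114030290-114030478, plus strand: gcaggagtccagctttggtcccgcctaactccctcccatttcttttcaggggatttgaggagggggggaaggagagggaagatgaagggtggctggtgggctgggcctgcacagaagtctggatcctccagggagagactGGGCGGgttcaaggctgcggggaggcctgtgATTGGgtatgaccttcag
Col3a1, chr1:45311338-45311537, plus strand: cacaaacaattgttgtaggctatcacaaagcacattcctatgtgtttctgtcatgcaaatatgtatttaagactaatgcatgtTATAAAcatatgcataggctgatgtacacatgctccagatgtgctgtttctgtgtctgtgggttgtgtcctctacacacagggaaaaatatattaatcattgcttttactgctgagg

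Over the 250 bases before the start, Col1a2, Col11a1 and Col5a3 each held 1 CCAAT motif and 2 GC boxes, 1 of which lies outside the stretch shown for Col1a2 and for Col11a1. Col5a1 held 2 GC boxes, and Col3a1 held only 1 TATAAA, which lies 117 bases before the start. Of 32851 RefSeq promoters searched over the same length, 33.8% held CCAAT, 32.7% held GGGCGG and 12.4% held TATAAA. None of the 3 motifs overlapped another in the bases shown. Col5a3, with as many of each motif as Col1a2 and Col11a1, was higher in the cKO-labelled library. A link between these motifs and the levels was not tested.

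Fibroblast-like nuclei were rare in the parenchyma, with 51 in the control-labelled library and 50 in the cKO-labelled library, and they carried less of these genes than lesional ones. The summed level was 1345 and 1313 CPM in the parenchyma and 4824 and 4304 CPM in the lesion, log2 ratios of 1.84 (1.68 to 2.01) and 1.71 (1.54 to 1.89). Col3a1 differed most in both libraries, with 139 and 188 CPM in the parenchyma and 752 and 817 CPM in the lesion. For Col5a3 only 3 and 2 UMIs were counted in the parenchyma, too few to set a difference in the control-labelled library (0.57, -0.77 to 3.07). Parenchymal fibroblast-like nuclei were not assigned to states. The background also differed by region, with 1.59 and 0.74 type I UMIs per excitatory neuron-like nucleus in the lesion and 0.38 and 0.31 in the parenchyma. The part of either in the regional difference was not tested.

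Of 34 genes that fold, modify, cleave or cross-link collagen, 30 had at least 50 UMIs in lesional fibroblast-like nuclei and their median log2 ratio was -0.01. Of these 30 genes, 1 was past 1.5-fold, beside 4.9% of the 14294 genes with at least 50 UMIs. That gene was Adamts14, which encodes a protease that removes procollagen ends. Adamts14 had 7.57 CPM in the control-labelled library and 15.0 CPM in the cKO-labelled library (log2 ratio 0.98, 0.65 to 1.33). It was at 2.18 in the female mice and 0.39 in the male mice. Adamts3, of the same enzyme family, had 87.7 and 60.2 CPM (-0.54, -0.67 to -0.42) and Serpinh1, the collagen chaperone, had 59.1 and 46.2 CPM (-0.36, -0.50 to -0.21), and neither passed the fold.

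The remaining fibrillar collagen genes gave a mixed picture. Col27a1 had 168 and 206 CPM (log2 ratio 0.30), and Col11a2 had 45.6 and 34.2 CPM (-0.41). Col24a1 was past 1.5-fold with 19.5 and 32.5 CPM (0.74), but it was at 3.19 in the female mice and -0.43 in the male mice. Col2a1, the collagen of cartilage, had 6 UMIs in all lesional fibroblast-like nuclei and was not compared.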

How the data were processed

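The authors aligned 10x 3′ single-nucleus reads with Cell Ranger 9.0.0 to GRCm39, per the labels, and deposited 4 matrices of raw UMI counts, 1 per library and region. The counts are not normalised and carry no correction for free RNA or doublets. Here the outer 2.5% of barcodes at each end were removed by UMIs (757 to 36244 kept) and genes (584 to 6419 kept), and the top 2.5% by mitochondrial UMIs (8.75% or less kept), which left 21743 of 23489. Nuclei were clustered with scanpy 1.11.5 (3000 variable genes, 30 components, 20 neighbours, Leiden resolution 0.25) and named from fixed marker lists, with 3 or more markers required. Doublets were not removed in the main results. Leaving out nuclei with UMIs of both sexes, or the highest Scrublet scores, were alternatives.

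Counts were summed by class and library and divided by all UMIs of those nuclei (CPM). Intervals are exact Poisson for levels and exact binomial for ratios and shares, at 95%, and 0.5 was added to each sum before a log2 ratio. A gene was past the fold at 1.5-fold with an interval that left out 0 and at least 50 UMIs. TMM factors came from edgeR 4.0.16. Nuclei were assigned to the female or male mouse by Xist or Y-linked UMIs, with neither in 15.0% and 15.4% of lesional nuclei. The fold rule and the ratio intervals were tested on simulated Poisson counts, which hold no variation between nuclei, mice or libraries. Filtering, clustering and naming were not tested in this way.

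The text names the 7 genes, the other fibrillar collagens, processing genes past the fold with the same direction in both mice, the 3 genes most like each member, Cxcl12 and the leading genes of each state. Adamts3 and Serpinh1 were named after their values were seen, and so were the finer clusters. The members and lists were chosen with earlier results of these data known. Tag libraries were not used here.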

Additional observations from a re-analysis of the deposited data

How the results depend on the processing

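A single library stands for each genotype, and the 2 mice of the control-labelled library differed by 1.07 on the log2 scale for Col5a3. Thinning also moved values, and it gives nuclei equal weight as well as equal depth. The part of each was not tested. Across the 13 alternatives Col1a2, Col11a1, Col5a1, Col5a3 and the summed level kept their direction in all, while Col1a1, Col3a1 and Col5a2 kept it in 12. With the states weighted alike Col3a1 (-0.15) and Col5a2 (-0.052) reversed, beside Col1a1 at -0.31, Col1a2 at -0.69, Col5a1 at 0.19, Col5a3 at 0.28, Col11a1 at -0.56 and the sum at -0.40. The female mice alone gave -0.54 for Col1a2, 0.24 for Col3a1, 0.81 for Col5a1, 0.37 for Col5a2, 1.27 for Col5a3, -0.51 for Col11a1 and -0.13 for the sum. The male mice gave 0.017 for Col1a1, 0.27 for Col5a1, 0.023 for Col5a2, 0.22 for Col5a3 and -0.20 for Col11a1. With osteoblast-like nuclei included the values were -0.19 for Col1a1, -0.58 for Col1a2, 0.051 for Col3a1, 0.15 for Col5a1, 0.027 for Col5a2, -0.40 for Col11a1 and -0.27 for the sum. Equal weight per nucleus gave -0.13 for Col1a1, -0.55 for Col1a2, 0.017 for Col3a1, 0.079 for Col5a2, -0.43 for Col11a1 and -0.25 for the sum. Thinning to 1000 UMIs gave -0.091 for Col1a1, -0.56 for Col1a2, 0.068 for Col3a1, 0.27 for Col5a1, 0.036 for Col5a2, 0.90 for Col5a3, -0.44 for Col11a1 and -0.25 for the sum. Assigning each nucleus by its own markers gave -0.075 for Col1a1, -0.51 for Col1a2, 0.10 for Col5a2 and -0.19 for the sum. Except for the states, whose makeup differs between libraries, the cause was not tested. The number of members past 1.5-fold was 0, but 2 in the female mice (Col5a1 and Col5a3), 1 without nuclei of both sexes (Col5a3) and 1 with states weighted alike (Col1a2). This number was not counted after thinning, where Col5a3 was at 0.90. The number of processing genes past 1.5-fold was 2 in the female mice and 0 in the male mice. The share of all genes past 1.5-fold was computed for the main setting only (4.9%). Counts under the alternatives therefore have no such share beside them. The summed share held by fibroblast-like nuclei, 77.0%, was 53.1% by own markers, 83.7% without the highest Scrublet scores, 84.8% with osteoblast-like nuclei, 73.7% and 84.5% in the female and male mice, 79.0% without nuclei of both sexes, 78.2% without a barcode filter and 77.3% with the members left in clustering. No paired analysis was possible because each genotype has 1 library, and the same-sex mice set side by side share their library's preparation.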
